A study of Saccharomyces cerevisiae with 12 samples.

Results

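The genes described here are those of the 26S proteasome, the large protease that degrades ubiquitin-tagged proteins, together with RPN4, the transcription factor that turns on its genes. They were chosen by systematic gene ID, by a rule that uses no measured value though it was drawn up with earlier results of these data known, and all 33 were found among the 6159 genes of the deposited table. They comprise 14 subunits of the 20S core (7 alpha and 7 beta), 6 ATPases of the regulatory particle (RPT genes), 4 other subunits of its base (RPN1, RPN2, RPN10 and RPN13), 8 subunits of its lid, and RPN4. SEM1, a very small lid subunit also called Rpn15, is not among the 33 and was counted with the assembly and accessory genes.

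Footprints of ribosomes, along with poly(A) mRNA, had been sequenced from Saccharomyces cerevisiae SK1, a laboratory strain known for efficient sporulation, in 3 genotypes that differ in which DEAD-box RNA helicase the DED1 regulatory regions drive. The 2xDbp1 cells carry 4 copies of DBP1 under these regions, the Dbp1 cells carry DBP1 under them without a stated copy number, and the Ded1 cells carry DED1 under them. Ded1 and Dbp1 are related helicases that help ribosomes load and scan on mRNA leaders, and the extra copies were meant to bring the helicase levels of the strains closer, per the series' design text. Each genotype had 2 mRNA and 2 footprint libraries, 12 in all, from cells harvested at an optical density of 0.6 in rich medium (YEPD, 30 °C) after 1 minute in 100 µM cycloheximide. The state of the native DED1 and DBP1 genes and the ploidy of the strains are not stated in the labels. Nothing in the labels says that replicates came from separate cultures, so p-values measure the spread between these libraries, which may be technical.

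The core of the proteasome is a barrel of stacked alpha and beta rings, and 3 of the beta subunits, Pre2, Pup1 and Pre3, carry the proteolytic sites inside it. The regulatory particle caps the barrel: its base holds a ring of ATPases that unfold the substrate and push it into the core, and its lid holds Rpn11, which cuts off the ubiquitin chain. Each subunit is present in equal number in its subcomplex, so that cells need like amounts of each. Rpn4 binds a shared element in the promoters of these genes and is itself degraded quickly by the proteasome, which forms a feedback loop.

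Depth, as inferred from the steps in the values, was 8.7 to 13.11 M reads per footprint library and 6.0 to 8.5 M per mRNA library. A member had 580 to 5666 inferred reads in a footprint library and 608 to 4642 in an mRNA library, leaving aside PRE3, whose gene span holds an intron. The helicases matched the labels. DBP1 mRNA was 156 and 153 RPKM in 2xDbp1, 100.4 and 104.5 RPKM in Dbp1 and 5.12 and 4.26 RPKM in Ded1, where RPKM is reads scaled to gene length and to library size. DED1 mRNA was 1.81 and 1.87 RPKM in 2xDbp1, 2.74 and 2.81 RPKM in Dbp1 and 63.0 and 61.5 RPKM in Ded1. DBP1 footprints were 921 and 943 RPKM in 2xDbp1 and 573 and 571 RPKM in Dbp1, and DED1 footprints were 710 and 730 RPKM in Ded1. DBP1 in 2xDbp1 thus lay above DED1 in Ded1 in both library types. DBP1 in Dbp1 lay above it in mRNA and below it in footprints. Helicase protein was not measured here. Genes of meiosis and of mating had low values. No value of the 7 meiotic genes exceeded 6.41 RPKM in footprints or 6.28 RPKM in mRNA, and none of the 6 mating genes exceeded 3.25 RPKM in footprints or 8.59 RPKM in mRNA.

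The proteasome genes had high mRNA and footprint levels. Over the 6 footprint libraries, the 32 subunits had a median of 203.8 RPKM, a level above that of 83% of the 4785 genes measured in both library types, which had a median of 42.1 RPKM. In mRNA their median was 293 RPKM, above 84.6% of genes, against 67.1 RPKM for all of them. Their footprints per mRNA, a measure of ribosome occupancy per transcript that is called translational efficiency below, had a median of 0.649, against 0.657 for all genes. The subunits were thus high in mRNA and in footprints and stood near the middle of all genes in the ratio between them.

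Core alpha subunits form the outer rings of the barrel and its gate. Their footprints lay in a narrow band, with 6-library means between 211 RPKM for PRE9 (YGR135W) and 263 RPKM for PRE8 (YML092C). Their mRNA means ran from 232 RPKM for SCL1 (YGL011C) to 531 RPKM for PRE9. PRE9, the alpha subunit that yeast can live without, thus had the most mRNA of the 7. Its mean footprint level was the lowest, but nearly tied with that of PRE10 (213 RPKM). PRE10 had fewer footprints than PRE9 in replicate 1 of 2xDbp1 and of Dbp1 and in replicate 2 of Ded1. PRE9 footprints were 210.4 and 196 RPKM in 2xDbp1, 206 and 239.7 RPKM in Dbp1 and 198 and 217 RPKM in Ded1. Its mRNA was 500.5 and 466 RPKM in 2xDbp1, 519.5 and 584.5 RPKM in Dbp1 and 558 RPKM in both Ded1 libraries. The values of the 3 genotypes overlapped in footprints, and both 2xDbp1 libraries lay below the other 4 in mRNA. Of the remaining alpha subunits, PUP2 (YGR253C) ranged over all libraries from 217 to 259.5 RPKM in footprints, PRE5 (YMR314W) from 249.9 to 270.1 RPKM and PRE10 (YOR362C) from 194 to 244 RPKM.

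Core beta subunits form the inner rings. PRE7 (YBL041W), a structural beta subunit, had more footprints than any other subunit in 6 of 6 footprint libraries. Its footprints were 318 and 291 RPKM in 2xDbp1, 305 and 346 RPKM in Dbp1 and 317 and 301 RPKM in Ded1. PRE4 (YFR050C), with a mean of 274 RPKM, and PRE8 came next in mean footprints. The ranks of PRE4, PRE8, SCL1, PRE6 (YOL038W) and PUP3 (YER094C) changed between libraries, and each of them took rank 2 in at least 1 library without holding it in all.

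The genes of the 3 catalytic beta subunits differed in mRNA more than in footprints. PUP1 (YOR157C), which encodes the trypsin-like site, had footprints of 202 and 198 RPKM in 2xDbp1, 206 and 217 RPKM in Dbp1 and a mean of 200.5 ± 0.78 RPKM in Ded1 (SD, n = 2). PRE2 (YPR103W), which encodes the chymotrypsin-like site, had footprints of 199 and 181 RPKM in 2xDbp1, 190.0 and 216 RPKM in Dbp1 and 195 and 194 RPKM in Ded1. PRE3 (YJL001W), which encodes the caspase-like site, had 236 and 237 RPKM in 2xDbp1, 242 and 302 RPKM in Dbp1 and 231.5 and 248 RPKM in Ded1. PRE3 thus lay above PUP1 and PRE2 in footprints of every genotype. In mRNA, PUP1 had only 158 and 151 RPKM in 2xDbp1, 153 and 170.3 RPKM in Dbp1 and 133 and 143 RPKM in Ded1. PRE2 had 337.5 and 309 RPKM of mRNA in 2xDbp1, 287 and 392 RPKM in Dbp1 and 292 and 296 RPKM in Ded1. PUP1 and PRE2 thus had like footprint levels from mRNA levels that did not overlap in any genotype.

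The ATPases, which form the ring that unfolds substrates, had footprint means between 137 RPKM for RPT3 (YDR394W) and 205 RPKM for RPT1 (YKL145W), and mRNA means between 167.5 RPKM for RPT3 and 330.0 RPKM for RPT6 (YGL048C). RPT3, whose C-terminal tail helps dock the ring on the core, had footprints of 132 and 127 RPKM in 2xDbp1, 136 and 151 RPKM in Dbp1 and 138.1 and 138.4 RPKM in Ded1. It held ranks 29 to 31 of 32 in the footprint libraries and 28 to 29 in the mRNA libraries, so it was low in both. RPT2 (YDL007W) and RPT5 (YOR117W), whose tails also dock on the core, ranged from 146 to 168 RPKM and from 155 to 175 RPKM in footprints over the 6 libraries.

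The other base subunits spanned a wide range of mRNA. RPN1 (YHR027C) and RPN2 (YIL075C), the 2 large scaffolds of the base, had the lowest and second lowest mRNA of the 32 subunits in 6 of 6 libraries. RPN1 mRNA was 85.1 and 77.5 RPKM in 2xDbp1, 91.7 and 113 RPKM in Dbp1 and 119 and 100.2 RPKM in Ded1. RPN2 mRNA was 105 and 101 RPKM in 2xDbp1, 117 and 133 RPKM in Dbp1 and 124 and 112 RPKM in Ded1. Both genes had more footprints than mRNA in RPKM, with footprint means over 6 libraries of 131 RPKM for RPN1 and 154 RPKM for RPN2, against mRNA means of 97.8 RPKM and 115 RPKM. RPN13 (YLR421C), a ubiquitin receptor, lay at the other end, with mRNA of 522 and 444 RPKM in 2xDbp1, 479.9 and 574 RPKM in Dbp1 and 502 and 577 RPKM in Ded1. RPN10 (YHR200W), another ubiquitin receptor of the base and a protein that also occurs free of the proteasome, had a mean of 183 RPKM in footprints and 152.5 RPKM in mRNA.

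The lid subunits, most of which are scaffold proteins around the deubiquitinase Rpn11, had footprint means between 121 RPKM for RPN3 (YER021W) and 209.9 RPKM for RPN6 (YDL097C). RPN3 had the fewest footprints of the 32 subunits in 6 of 6 libraries. Its footprints were 126 and 112 RPKM in 2xDbp1, 114 and 126 RPKM in Dbp1 and 119 and 130.1 RPKM in Ded1, and the genotypes overlapped. RPN8 (YOR261C), the partner of Rpn11, had mRNA of 481 and 430.4 RPKM in 2xDbp1, 485 and 544 RPKM in Dbp1 and 520.4 and 493 RPKM in Ded1. RPN11 (YFR004W) itself had footprints of 163 and 160.5 RPKM in 2xDbp1, 155 and 186 RPKM in Dbp1 and 145 and 176 RPKM in Ded1, so its replicates within Dbp1 and within Ded1 lay farther apart than the genotype means. RPN7 (YPR108W), another lid scaffold, ranged from 134 to 146.5 RPKM in footprints and from 237 to 289 RPKM in mRNA.

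**Figure D1:**
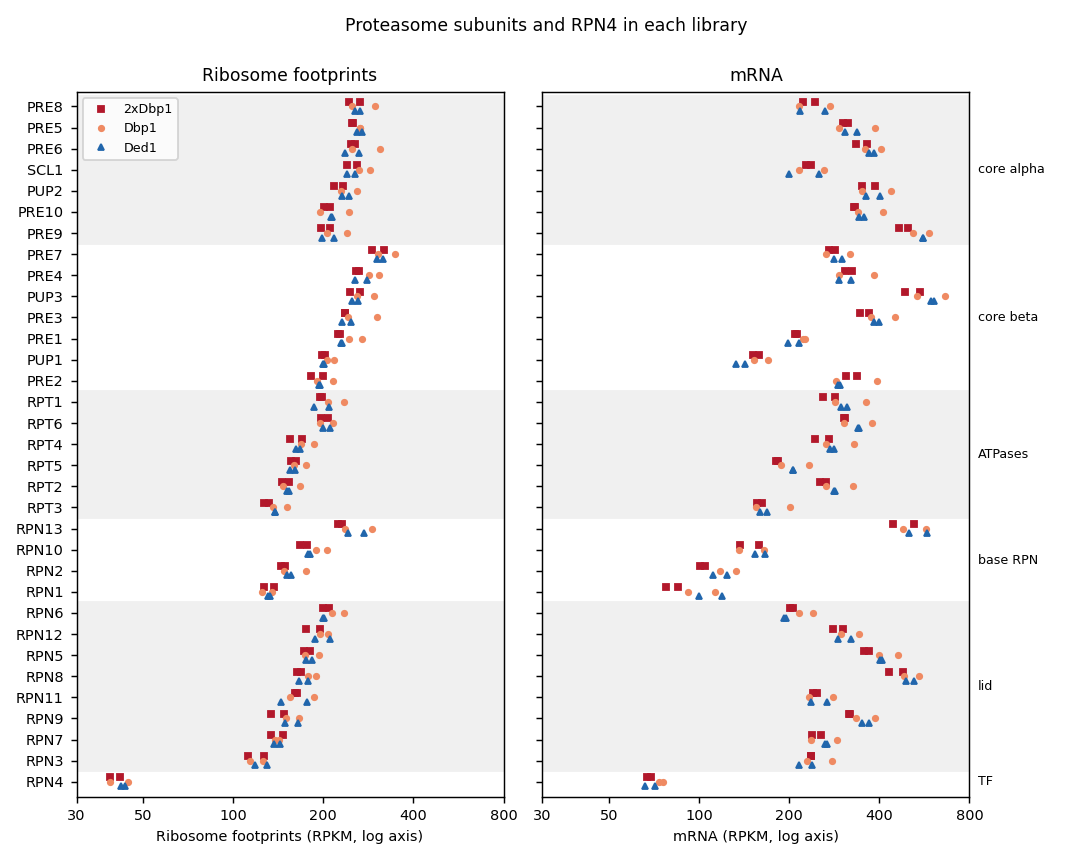
RPKM of each gene in every library on log axes, footprints in the left panel and mRNA in the right, with squares for 2xDbp1, circles for Dbp1 and triangles for Ded1 and shaded bands for the classes. Core subunits sit near 200 to 300 RPKM in footprints. The mRNA values scatter more widely, with RPN1 lowest and PUP3 highest of the 32 subunits, and RPN4 lies below all 32 in both panels.

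RPN4 (YDL020C) was expressed at a lower level than every subunit of the particle it controls. Its footprints were 42.1 and 38.8 RPKM in 2xDbp1, 38.9 and 44.7 RPKM in Dbp1 and 43.6 and 42.1 RPKM in Ded1. Its mRNA was 66.8 and 69.0 RPKM in 2xDbp1, 73.6 and 75.9 RPKM in Dbp1 and 66.3 and 71.6 RPKM in Ded1. The genotypes overlapped in footprints except that both 2xDbp1 values lay below both Ded1 values, the nearest being almost tied at 42.06 and 42.11 RPKM. In mRNA both Dbp1 values lay above the other 4. The mean footprint level of 41.7 RPKM exceeded that of 49.7% of all genes and the mean mRNA level of 70.5 RPKM exceeded 51.7%, so RPN4 stood in the middle of all genes.

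Footprints of the 32 subunits were closer to each other than their mRNAs were. The SD of log2 RPKM across the subunits within a library was 0.340 to 0.389 in the 6 footprint libraries and 0.605 to 0.632 in the 6 mRNA libraries, and it was larger in mRNA in 6 of 6 same-numbered pairs. Over all genes the order was the other way round, with an SD of 2.15 to 2.20 in footprints and 1.99 to 2.05 in mRNA. The subunit with the most footprints had 2.31 to 2.76 times those of the subunit with the fewest, while in mRNA this ratio was 5.11 to 6.42. All 32 subunits lay within 2-fold of their library's median in each footprint library, against 28 to 30 of 32 in the mRNA libraries. Without RPN1 and RPN2, a choice made after seeing the data, the mRNA SD averaged 0.476 in 2xDbp1, 0.505 in Dbp1 and 0.533 in Ded1, still above the footprint SD of 0.350, 0.377 and 0.347 over all 32.

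The narrow spread was clearest inside each subcomplex. Among the 14 core subunits the SD of log2 RPKM was 0.186 to 0.204 in footprints and 0.450 to 0.586 in mRNA. Among the 18 subunits of the regulatory particle it was 0.239 to 0.307 in footprints and 0.614 to 0.679 in mRNA. In footprints, 14 of 14 core subunits stayed within 1.5-fold of the core median in all 6 libraries, against 9 of 14 in mRNA. For the regulatory particle, 17 of 18 stayed within 1.5-fold of its own median in footprints and 11 of 18 in mRNA. RPN13 was the exception in footprints, at 1.35 to 1.60 times the median of its particle. SEM1, not counted among the 18, had 279 to 360 RPKM in footprints, against regulatory medians of 158 to 186 RPKM.

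Core subunits had more footprints than subunits of the regulatory particle. The median core footprint level over the median regulatory footprint level was 1.48 ± 0.06 in 2xDbp1, 1.50 ± 0.01 in Dbp1 and 1.46 ± 0.02 in Ded1 (SD, n = 2 libraries each). In mRNA the ratio was 1.27 ± 0.002 in 2xDbp1, 1.22 ± 0.07 in Dbp1 and 1.16 ± 0.08 in Ded1. The footprint ratio was 1.44 and 1.52 in the 2xDbp1 libraries, 1.51 and 1.49 in Dbp1 and 1.47 and 1.45 in Ded1. Both Dbp1 ratios lay above both Ded1 ratios, and those of 2xDbp1 overlapped both other genotypes. No core subunit fell below the regulatory median in any footprint library, and at most 1 regulatory subunit lay above the core median, against 4 core subunits below and 3 to 6 regulatory subunits above in the mRNA libraries. With means in place of medians the footprint ratio was 1.45 in Dbp1 and 1.41 in Ded1. With 2 libraries a genotype, an exact 2-sided permutation test of such a ratio between genotypes cannot give a p below 0.333.

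**Figure D2:**
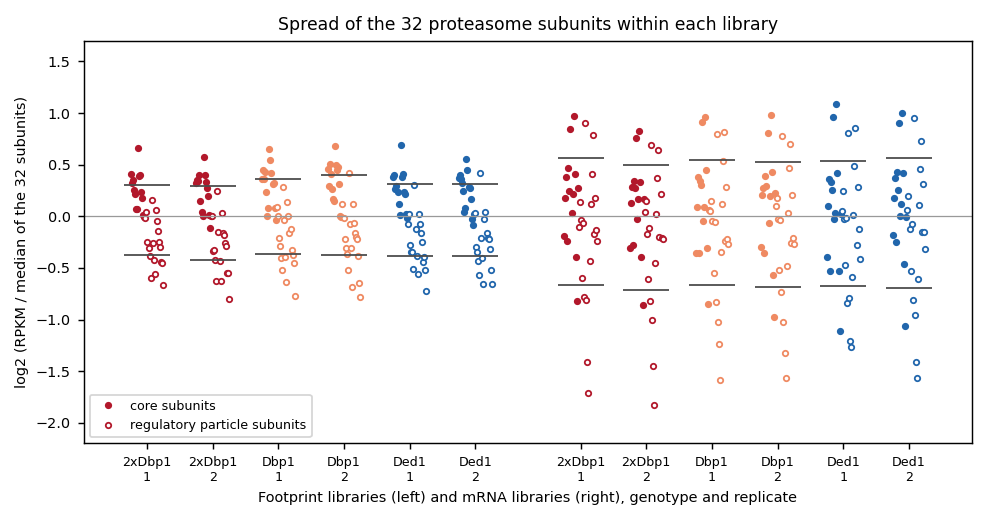
Each point is a subunit's log2 RPKM relative to the median of the 32 subunits in that library, filled for the core and open for the regulatory particle, with footprint libraries on the left and mRNA libraries on the right. Dark lines mark the mean plus and minus 1 SD: the band is narrower in every footprint library (SD 0.340 to 0.389) than in every mRNA library (0.605 to 0.632), and filled points lie mostly above open ones in footprints.

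The spread of the core was set out by genotype as well. The SD of log2 mRNA across core subunits was 0.474 and 0.450 in the 2xDbp1 libraries, 0.496 and 0.523 in Dbp1 and 0.586 and 0.530 in Ded1. The genotypes did not overlap in this subset, with 2 libraries each and no test. Across the 18 regulatory subunits they did overlap, at 0.67 and 0.67 in 2xDbp1, 0.66 and 0.64 in Dbp1 and 0.61 and 0.68 in Ded1. Across all 32 the mRNA SD overlapped too. In footprints of the core the SD was 0.186 and 0.192 in 2xDbp1, 0.204 and 0.201 in Dbp1 and 0.190 and 0.186 in Ded1. There 2xDbp1 and Ded1 overlapped and both Dbp1 values lay above them. PUP3 mRNA was 547 and 488 RPKM in 2xDbp1, 536 and 661 RPKM in Dbp1 and 609 and 594 RPKM in Ded1. PUP3 is a structural beta subunit and had the most mRNA of the 32 in 6 of 6 libraries.

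Subunit mRNA and footprint levels were only loosely related. Across the 32 subunits Spearman's rho between mRNA and footprint RPKM of same-numbered libraries was 0.337 to 0.508, against 0.838 to 0.857 across 4785 genes. Within the 14 core subunits it was -0.191 to 0.055 and within the 18 regulatory subunits 0.453 to 0.622. These are descriptions across genes within a library, which share its depth and normalization, and a set of genes with a narrow range of levels gives a lower rho than all genes do.

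The ratio of footprints to mRNA therefore differed between subunits of the same particle. In the mean over the 6 pairs it was highest for RPN1 (1.37), followed by PUP1 (1.35) and RPN2 (1.34). RPN1 had 1.60 and 1.63 in 2xDbp1, 1.36 and 1.20 in Dbp1 and 1.12 and 1.30 in Ded1, and ranked first in the 2xDbp1 pairs only. The highest ratio was that of RPN10 (1.40) and RPN2 (1.31) in the Dbp1 pairs and that of PUP1 (1.50 and 1.41) in the Ded1 pairs. It was lowest for RPN8 in 6 of 6 pairs, with 0.351 and 0.380 in 2xDbp1, 0.368 and 0.346 in Dbp1 and 0.318 and 0.360 in Ded1, and next lowest in the mean for PRE9 (0.399) and RPN9 (YDR427W) (0.439). In total 8 subunits, namely SCL1, PRE8, PUP1, PRE1 (YER012W), PRE7, RPN1, RPN2 and RPN10, exceeded 1 in all 6 pairs, and PRE9, RPN5 (YDL147W), RPN8 and RPN9 stayed below 0.5 in all 6. RPN4 had a mean ratio of 0.592.

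**Figure D3:**
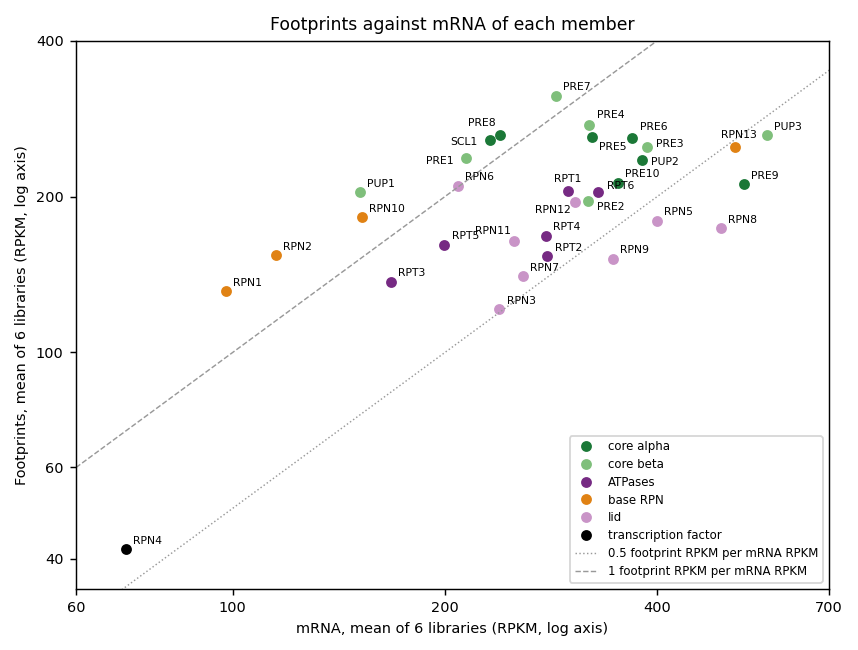
Mean footprint RPKM against mean mRNA RPKM over the 6 libraries of each type for the 33 genes, on log axes and coloured by class, with lines at 1 and 0.5 footprint RPKM per mRNA RPKM. The subunits spread from 97.8 to 572.5 RPKM in mRNA and only from 121 to 313 RPKM in footprints. Above the upper line lie 9 subunits, namely SCL1, PRE8, PUP1, PRE1, PRE7, RPN1, RPN2, RPN6 and RPN10. Below the lower line lie 6, namely PRE9, PUP3, RPN5, RPN8, RPN9 and RPN13.

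Footprint level also went with gene length. Across 31 subunit genes (without PRE3, whose gene span holds an intron), Spearman's rho between gene length and footprint RPKM was -0.83 to -0.80 in the 6 footprint libraries, and that with mRNA RPKM was -0.41 to -0.33. Core genes are short, at 597 to 867 nt, and regulatory genes run from 471 nt for RPN13 to 2982 nt for RPN1. Length and membership of the core thus largely go together over the whole set, though RPN10 (807 nt) and RPN12 (825 nt) lie within the core range. Within the 13 core genes rho in footprints was -0.62 to -0.46, and within the 18 regulatory genes -0.53 to -0.37. The part of length in the differences between subunits was not tested.

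The genes lie on 13 chromosomes in the R64 reference gene table, and none of them overlaps another annotated gene there. PRE4 and RPN12 (YFR052W) on chromosome VI have 1 gene, RET2, between them, and RPT4 (YOR259C) and RPN8 on chromosome XV have GCD1 between them. PRE4 and RPN12 had mean ratios of footprints to mRNA of 0.859 and 0.638, and RPT4 and RPN8 of 0.607 and 0.354.

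Together the 32 subunits took 0.473% to 0.542% of summed footprint RPKM and 0.536% to 0.678% of summed mRNA RPKM. Their summed footprints were 6409 and 6156 RPKM in 2xDbp1, 6419 and 7228 RPKM in Dbp1 and 6305 and 6593 RPKM in Ded1. Their summed mRNA was 9347 and 8799 RPKM in 2xDbp1, 9145 and 10996 RPKM in Dbp1 and 9501 and 9909 RPKM in Ded1. Replicate 2 of Dbp1 had the highest sum in both library types, and replicate 1 of Dbp1 lay among the other genotypes. RPKM are relative to each library, so a change in these genes and an opposite change in the rest of the library cannot be told apart. Nor can bulk libraries tell the share of cells that express these genes from the RNA per cell.

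The subunits moved together between the replicates of Dbp1. In Dbp1 replicate 2 relative to replicate 1, 31 of 32 subunits were higher in footprints, by a median of 0.148 on the log2 scale, and 32 of 32 were higher in mRNA, by a median of 0.276. Over all genes, 43.5% were higher in replicate 2 in either library type, with medians of -0.032 in footprints and -0.031 in mRNA. RPN4 differed by 0.197 in footprints and 0.045 in mRNA in the same direction. Between the replicates of 2xDbp1 the median difference of the subunits was -0.061 in footprints and -0.070 in mRNA, and between those of Ded1 it was 0.060 and 0.058. In Dbp1 mRNA the subunits thus differed more between replicates than between any pair of genotypes, whose medians are given next.

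**Figure D4:**
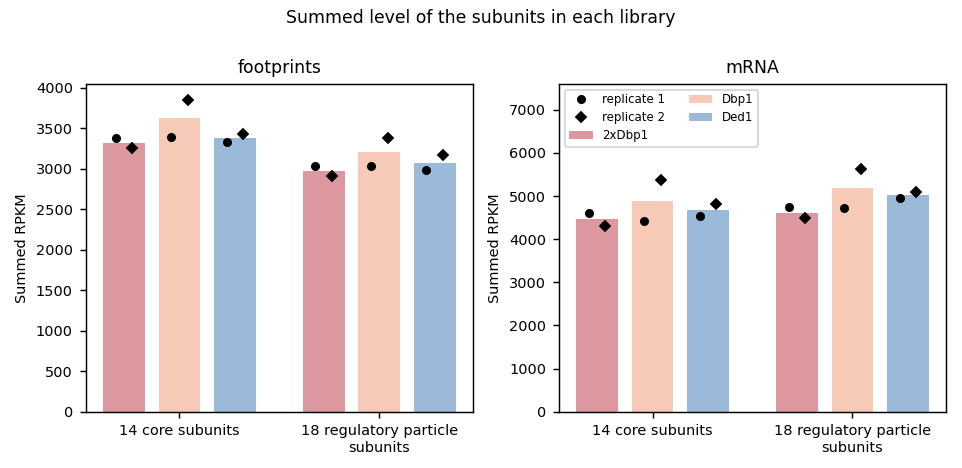
Summed RPKM of the 14 core subunits and the 18 regulatory particle subunits in footprints (left) and mRNA (right), with bars for genotype means and points for the 2 libraries. Replicate 2 of Dbp1, the diamond at 3853 and 3375 RPKM in footprints and 5361 and 5635 RPKM in mRNA, lies above every other library.

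The first comparison asked whether cells that live on Dbp1 express proteasome genes differently from cells that live on Ded1. Most members had slightly higher values in Dbp1, and none passed the test. In footprints 29 of 33 had positive log2 fold changes, with a median of 0.07, against 50.8% of all genes and a median of 0.00. In mRNA 25 of 33 did, with a median of 0.06, against 57.0% of all genes and a median of 0.04. Fold changes here and below are on the log2(RPKM + 1) scale.

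No member was called in Dbp1 against Ded1 by limma at a Benjamini-Hochberg adjusted p under 0.05, in footprints (background 3.31% of 4830 genes) or in mRNA (1.52% of 5198 genes). At an unadjusted p under 0.05 limma gave 0 of 33 in footprints (23.5% of all genes) and 1 of 33 in mRNA (19.5%). PRE1, a structural beta subunit, had the lowest p in footprints, with 244 and 269 RPKM in Dbp1 and 229 and 230.1 RPKM in Ded1, a log2 fold change of 0.16 ± 0.08 (SE, limma, adjusted p = 0.313). RPN6, the lid subunit that clamps the lid to the core, followed with 214 and 235 RPKM in Dbp1 and 199.5 and 202 RPKM in Ded1, a log2 fold change of 0.16 ± 0.08 (limma, adjusted p = 0.315). RPN6 had the lowest p in mRNA too, with 216 and 240.5 RPKM in Dbp1 and 192 and 196 RPKM in Ded1, a log2 fold change of 0.23 ± 0.09 (limma, adjusted p = 0.229). PUP1 mRNA differed by 0.22 ± 0.10 (limma, adjusted p = 0.266). The 2 libraries of Dbp1 lay above both Ded1 libraries for each of these genes.

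RPN4 differed by -0.04 ± 0.10 in footprints (limma, adjusted p = 0.859) and by 0.12 ± 0.09 in mRNA (limma, adjusted p = 0.517) in Dbp1 against Ded1. The values of the 2 genotypes did not overlap for 8 members higher in Dbp1 and 0 lower in footprints, where 25.1% and 26.1% of all genes did so. In mRNA this held for 4 members higher and 0 lower, against 30.6% and 21% of all genes. These shares of members are near or under the background. The direction rested on 1 Dbp1 replicate: without Dbp1 replicate 2 only 15 of 33 members were positive in footprints, with a median of -0.02, and 5 of 33 in mRNA, with a median of -0.08, whereas without replicate 1 the medians were 0.16 and 0.18.

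The second comparison set the strain with 4 copies of DBP1, in which Dbp1 is raised, against Ded1. Most members had slightly lower values in 2xDbp1, and again none passed. In footprints 27 of 33 had negative log2 fold changes, with a median of -0.03, against 48.1% of all genes and a median of 0.01. In mRNA 26 of 33 did, with a median of -0.11, against 45.2% of all genes and a median of 0.03, and this included 6 of 6 ATPases and 4 of 4 base RPN genes. The core beta genes had a median of 0.03 in mRNA, like that of all genes, with 4 of 7 positive and a range of -0.22 to 0.16. Differences between classes were not tested.

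In 2xDbp1 against Ded1 limma called 0 of 33 members in footprints (background 0.0621%) and 0 of 33 in mRNA (0.077%) at an adjusted p under 0.05. At an unadjusted p under 0.05 it gave 0 of 33 in footprints (9.3% of all genes) and 1 of 33 in mRNA (15.1%). That gene was RPN1, with mRNA of 85.1 and 77.5 RPKM in 2xDbp1 and 119 and 100.2 RPKM in Ded1, a log2 fold change of -0.42 ± 0.14 (SE, limma, adjusted p = 0.283). RPN1 footprints were 136.5 and 127 RPKM in 2xDbp1 and 133 and 131 RPKM in Ded1, and overlapped (log2 fold change -0.00 ± 0.09, limma, adjusted p = 0.986). PRE9 mRNA, given above, differed by -0.21 ± 0.09 (limma, adjusted p = 0.352). In footprints the 2 lowest p were those of RPN9, a lid scaffold, with 147.5 and 134 RPKM in 2xDbp1 and 149 and 165 RPKM in Ded1 (log2 fold change -0.16 ± 0.10, limma, adjusted p = 0.626), and RPN13, with 223 and 231 RPKM in 2xDbp1 and 242 and 274 RPKM in Ded1 (-0.18 ± 0.12, limma, adjusted p = 0.635).

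RPN4 differed by -0.08 ± 0.10 in footprints (limma, adjusted p = 0.803) and by -0.02 ± 0.09 in mRNA (limma, adjusted p = 0.929) in 2xDbp1 against Ded1. The genotypes did not overlap for 0 members higher and 9 lower in 2xDbp1 in footprints, against 25% and 19.7% of all genes. In mRNA they did not overlap for 3 higher and 16 lower, against 30.9% and 21.4% of all genes. The 3 higher were RPN6, PUP1 and PRE2, and the 16 lower held 5 of the 6 ATPases. The share of members that were lower thus exceeded that of all genes in both library types. These counts were not tested, and members that move together are not independent. Without 2xDbp1 replicate 2, 18 of 33 members were positive in footprints, with a median of 0.01, and the mRNA median was -0.04.

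The third comparison asked whether the extra DBP1 copies alone changed these genes, by setting 2xDbp1 against Dbp1. Nearly every member had a slightly lower value in 2xDbp1, and none passed the test. In footprints 32 of 33 had negative log2 fold changes, with a median of -0.12, against 48.1% of all genes and a median of 0.01. In mRNA 33 of 33 did, with a median of -0.14, against 53.0% of all genes and a median of -0.01. The exception in footprints was RPN1, at 0.02. By class, the mRNA medians were -0.13 in core alpha, -0.09 in core beta, -0.18 in the ATPases, -0.20 in the base RPN genes and -0.15 in the lid.

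In 2xDbp1 against Dbp1 limma called 0 of 33 members in footprints (background 0%) and 0 of 33 in mRNA (0.0192%) at an adjusted p under 0.05. At an unadjusted p under 0.05 it gave 1 of 33 in footprints (9.07% of all genes) and 3 of 33 in mRNA (7.77%). RPN10 had the lowest p in footprints, with 167 and 177 RPKM in 2xDbp1 and 189.5 and 205.5 RPKM in Dbp1, a log2 fold change of -0.20 ± 0.08 (SE, limma, adjusted p = 0.548). PRE1 footprints were 227 and 224 RPKM in 2xDbp1 and 244 and 269 RPKM in Dbp1 (-0.18 ± 0.08, limma, adjusted p = 0.567). RPN2 had the lowest p in mRNA (-0.28 ± 0.11, limma, adjusted p = 0.61), followed by RPN5, a lid scaffold with mRNA of 370.4 and 357 RPKM in 2xDbp1 and 399 and 463 RPKM in Dbp1 (-0.24 ± 0.10, limma, adjusted p = 0.634). For each of these genes both 2xDbp1 libraries lay below both Dbp1 libraries.

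RPN4 differed by -0.04 ± 0.10 in footprints (limma, adjusted p = 0.911) and by -0.14 ± 0.09 in mRNA (limma, adjusted p = 0.699) in 2xDbp1 against Dbp1. The genotypes did not overlap for 13 members lower in 2xDbp1 and 0 higher in each library type, where 18.2% of all genes were lower and 24% higher in footprints, and 21.3% were lower and 18.2% higher in mRNA. The share of members that were lower thus exceeded that of all genes in both library types, which was not tested. This comparison shares its 2xDbp1 libraries with the second and its Dbp1 libraries with the first. It rested on Dbp1 replicate 2 as the first did: without that replicate 23 of 33 members were negative in footprints (median -0.03) and 18 of 33 in mRNA (median -0.04), while without replicate 1 the medians were -0.20 and -0.28.

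**Figure D5:**
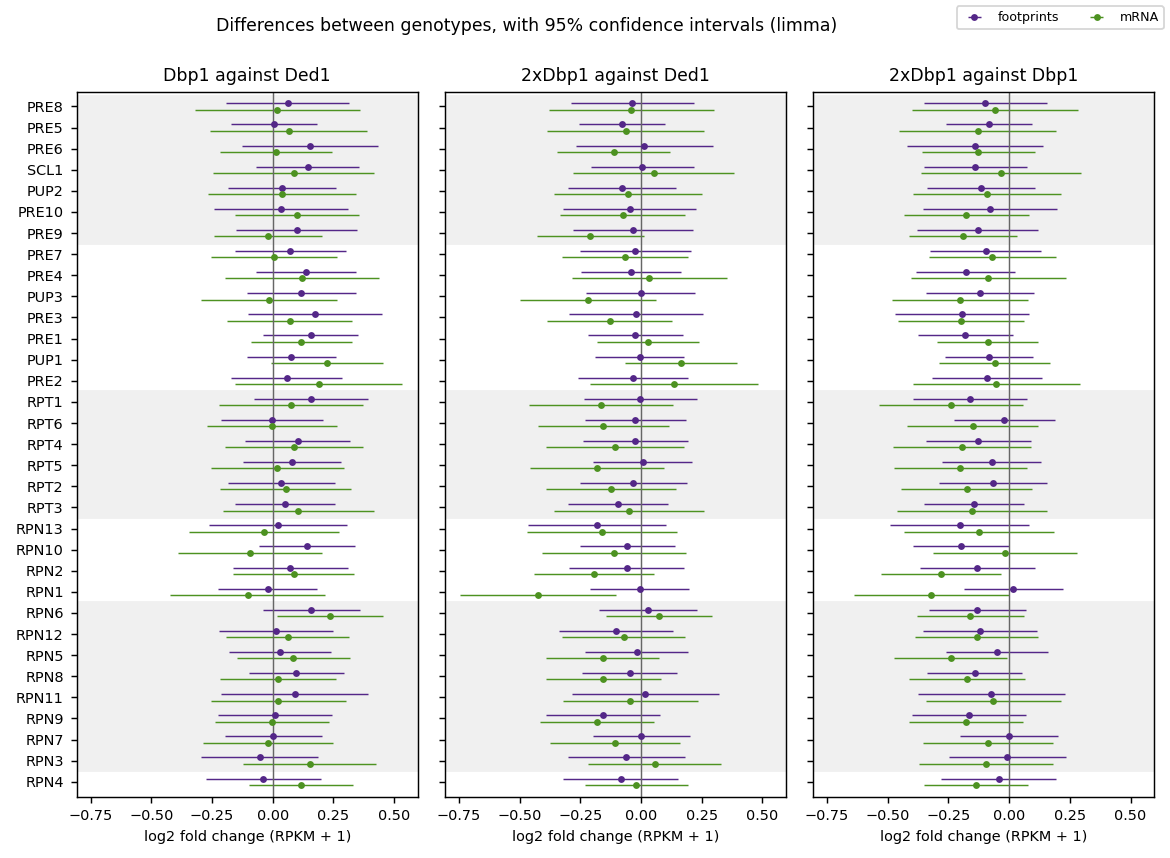
Log2 fold changes with 95% confidence intervals from limma for the 33 genes in footprints (purple) and mRNA (green), for Dbp1 against Ded1, 2xDbp1 against Ded1 and 2xDbp1 against Dbp1. Points lie mostly right of 0 in the first panel and left of 0 in the third, nearly all intervals cross 0, and none reaches 1 or -1.

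These intervals set a limit on the differences between these libraries. In all 9 comparisons, 3 each in footprints, mRNA and translational efficiency, the 95% confidence interval of 33 of 33 members lay between -1 and 1 on the log2 scale, so a 2-fold difference in either direction lay outside it. The bounds farthest from 0 were those of RPN1, at -0.74 in mRNA of 2xDbp1 against Ded1 and 0.79 in translational efficiency of the same comparison. The intervals are per gene and not adjusted for the number of genes. Like the p-values, they rest on the spread between 2 libraries a genotype, which may be technical. They may thus not bound differences between separate cultures. In footprints every interval of the 33 members lay within 1.5-fold in either direction in all 3 comparisons.

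Translational efficiency was tested as the difference between the log2 fold changes of footprints and of mRNA, and no member passed. This fit leaves out the pairing of same-numbered footprint and mRNA libraries. In Dbp1 against Ded1, limma called 0 of 33 (background 0.0418%; 0 at an unadjusted p under 0.05, 3.16% of all genes), with a median difference of 0.02. In 2xDbp1 against Ded1 it called 0 of 33 (background 0.0418%; 1 at an unadjusted p under 0.05, 5.12% of all genes), with a median of 0.04. In 2xDbp1 against Dbp1 it called 0 of 33 (background 0%; 0 at an unadjusted p under 0.05, 3.59% of all genes), with a median of 0.03. The medians over all genes were -0.02, -0.00 and 0.02.

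With same-numbered footprint and mRNA libraries of a genotype fitted as pairs, no member passed either, but the p-values were lower. The lowest adjusted p of a member in limma was 0.673 in Dbp1 against Ded1, 0.154 in 2xDbp1 against Ded1 and 0.372 in 2xDbp1 against Dbp1. At an unadjusted p under 0.05 the paired fit gave 0 of 33 (7.5% of all genes), 2 of 33 (12.5%; RPN1 and PUP3) and 2 of 33 (9.3%; RPN1 and RPN5) in the same order of comparisons. Over all genes it called 5 in place of 2 in 2xDbp1 against Ded1. All 33 intervals again lay between -1 and 1 in each comparison.

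RPN1 stood at the edge of this range. Its translational efficiency differed by 0.42 ± 0.17 in 2xDbp1 against Ded1 (SE, limma, adjusted p = 0.913) and by 0.34 ± 0.17 in 2xDbp1 against Dbp1 (limma, adjusted p = 0.999), and in both cases the 2xDbp1 ratios of 1.60 and 1.63 lay above those of the other genotype. With pairs its SE was 0.11, with a 95% interval of 0.18 to 0.66 and an adjusted p of 0.154 in 2xDbp1 against Ded1 (limma), and an interval of 0.10 to 0.58 and an adjusted p of 0.372 in 2xDbp1 against Dbp1. Its footprints overlapped between the 3 genotypes, and its mRNA in both 2xDbp1 libraries lay below the other 4 without passing the test. PUP1 differed by -0.17 ± 0.11 in 2xDbp1 against Ded1 (limma, adjusted p = 0.98), RPN5 by 0.19 ± 0.13 in 2xDbp1 against Dbp1 (limma, adjusted p = 0.999), RPN10 by 0.24 ± 0.15 in Dbp1 against Ded1 and RPN3 by -0.21 ± 0.16 in the same comparison (limma, adjusted p = 1.0 for both). For RPN4 the differences were -0.15 ± 0.13 in Dbp1 against Ded1, -0.06 ± 0.13 in 2xDbp1 against Ded1 and 0.09 ± 0.13 in 2xDbp1 against Dbp1 (limma, adjusted p of 0.999 or above in each).

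The ratios of the 2 genotypes did not overlap for 7 members higher and 6 lower in Dbp1 against Ded1, where 13.2% and 22.1% of all genes did so. In 2xDbp1 against Ded1 they did not overlap for 13 higher and 7 lower, against 19.7% and 24% of all genes. In 2xDbp1 against Dbp1 they did not overlap for 9 higher and 1 lower, against 24.7% and 17.8%. The share of members that were higher lay above that of all genes in the first 2 of these comparisons and near it in the last. These counts were not tested.

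Genes that work with the proteasome were followed in 3 further lists, of which 35 genes were tested in mRNA, and limma called none of them in any of the 9 comparisons. The list of 14 assembly and accessory genes had 3 genes with an unadjusted p under 0.05 in mRNA of Dbp1 against Ded1, 2 in 2xDbp1 against Ded1 and 2 in 2xDbp1 against Dbp1, where 19.5%, 15.1% and 7.77% of all genes had one. UMP1, the chaperone that is trapped and degraded as the core matures, had mRNA of 259 and 298 RPKM in Dbp1 and 196 and 233.5 RPKM in Ded1 (0.38 ± 0.13, limma, adjusted p = 0.182). NAS6, a chaperone of the base, had 179.5 and 175.5 RPKM in 2xDbp1 and 145 and 141 RPKM in Ded1 (0.31 ± 0.08, limma, adjusted p = 0.249). The values of both genes did not overlap in these comparisons.

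Of 17 ubiquitin, shuttling and Cdc48 genes, 16 were tested, and DOA1 is listed at 0 in every library. UBI4, which encodes a chain of ubiquitin units made in stress, had mRNA of 147 and 144 RPKM in Dbp1 and 85.2 and 92.9 RPKM in Ded1, a log2 fold change of 0.71 ± 0.13 (limma, adjusted p = 0.056). In 2xDbp1 its mRNA was 83.9 and 108 RPKM, a log2 fold change of -0.61 ± 0.13 against Dbp1 (limma, adjusted p = 0.357). UBI4 shares its ubiquitin sequence with other yeast genes, so reads could be split among them and its values are uncertain. UBA1, the ubiquitin-activating enzyme, had mRNA of 72.0 and 81.3 RPKM in 2xDbp1 and 96.4 and 102 RPKM in Dbp1 (-0.37 ± 0.10, limma, adjusted p = 0.46).

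Of 6 regulators of RPN4, 5 were tested, since UBR2, a ubiquitin ligase for Rpn4, had under 5 RPKM. YAP1, an oxidative stress factor that acts on the RPN4 promoter, had mRNA of 79.5 and 79.6 RPKM in 2xDbp1, 98.3 and 108 RPKM in Dbp1 and 76.2 and 85.9 RPKM in Ded1. Its log2 fold change was -0.37 ± 0.10 in 2xDbp1 against Dbp1 (limma, adjusted p = 0.476) and 0.34 ± 0.10 in Dbp1 against Ded1 (limma, adjusted p = 0.147). PDR1, a drug response factor, had 13.7 and 13.9 RPKM in 2xDbp1 and 18.9 and 16.1 RPKM in Dbp1 (-0.32 ± 0.13, limma, adjusted p = 0.63). Both Dbp1 libraries lay above both 2xDbp1 libraries for YAP1 and for PDR1.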

How the data were processed

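The deposited table holds 1 value per gene for each of 12 libraries, taken here as RPKM made by the authors. The labels name no unit, which was read from the values: value times gene length minus 60 nt moves in steps of 1 read, with 83.8% to 87.7% of values up to 200 reads whole within 0.02. The depths follow from these steps. Per the labels' protocols, libraries were made by linker ligation and circularization. CASAVA, bcl2fastq 2.17 and Bowtie2 are named by the submitters' processing notes, which give no genome build, and no source names an annotation or a counting rule. The R64 reference gene table matched 5637 IDs and left 522 unmatched. It served for names, lengths and neighbours.

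In limma 3.58.1 (R 4.3.3), models with trended empirical Bayes were fitted to log2(RPKM + 1) over all genes with a mean of at least 5 RPKM, separately for 6 mRNA and 6 footprint libraries, the 3 genotypes sharing 1 estimate of the spread. Translational efficiency was the interaction over 12 libraries. Tests were 2-sided, with Benjamini-Hochberg adjusted p under 0.05. All 33 members passed the filter. The test planned in case of raw counts was not needed.

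The members, lists and tests were chosen with earlier results of these data known. Named genes follow a rule: RPN4, members past the threshold or else the 2 lowest p per comparison, the 3 highest and 3 lowest subunits in mean footprints and in footprints per mRNA, and the 2 lowest p in mRNA of each other list. Other members are named where their class is described. The lists were assembly and accessory factors, ubiquitin, shuttling and Cdc48 genes, regulators of RPN4, and meiotic and mating genes, of which HO was not analysed here. A planned promoter motif search was not run.

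Same-numbered mRNA and footprint libraries of a genotype deviated together from their group means (r = 0.417 in 2xDbp1, 0.657 in Dbp1 and 0.533 in Ded1 over 4785 genes) and so count as pairs. The main fit of translational efficiency does not use the pairs, and the fit that does is given beside it. Between genotypes, in mRNA and footprints, r was -0.107 and -0.071 for 2xDbp1 with Dbp1, below the bound of 0.1. It lay above the bound for 2xDbp1 with Ded1 (0.325 and 0.355) and for Dbp1 with Ded1 (0.166 and 0.191). The main fits do not pair genotypes by number, and so leave out what same-numbered libraries share in these 2 comparisons. The replicate block, an alternative fit, uses the numbers. On simulated data for Dbp1 against Ded1 footprints, 99 of 100 genes with a log2 change of 1 were called, and 87 of 100 for translational efficiency. Of genes without a change, 7 of 4636 and 11 of 4589 were called. The simulated libraries were independent, with a fixed dispersion that was not estimated from these data. They thus held no pairing of libraries and no shift shared by genes. Changes in mRNA, or smaller ones such as those seen here, were not simulated. Alternatives covered the pseudocount, the filter, the scaling, the genotypes fitted, the replicate block and each replicate left out. The replicate block is a term for replicate number shared by the genotypes in mRNA and in footprints. For translational efficiency that setting fits the library pairs within genotypes instead. Python 3.11.15 with numpy 2.4.6, pandas 2.3.3, scipy 1.17.1 and matplotlib 3.10.9 made the tables and plots.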

Additional observations from a re-analysis of the deposited data

How the results depend on the processing

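No member passed the test in any of the 9 comparisons under any of the 13 alternatives, where the lowest adjusted p of a member was 0.154, so the count of 0 of 33 held throughout. Counts of genes called over the whole table moved more, and the cause was not tested. With only the 2 genotypes compared, limma called 8 genes in mRNA of Dbp1 against Ded1 in place of 79, 26 in mRNA of 2xDbp1 against Ded1 in place of 4, 44 in footprints of Dbp1 against Ded1 in place of 160, 12 in footprints of 2xDbp1 against Ded1 in place of 3, and 1 in footprints of 2xDbp1 against Dbp1 in place of 0. In mRNA of 2xDbp1 against Ded1 the count was 10 at a minimum mean of 20 and 8 with median-of-ratios scaling, and in mRNA of 2xDbp1 against Dbp1 it was 2 with a pseudocount of 5, in place of 1. Without the filter it was 96 in footprints of Dbp1 against Ded1 and 1 for translational efficiency in 2xDbp1 against Dbp1, in place of 0. With the replicate block, which shares replicate numbers between genotypes, it was 7 in mRNA and 5 in footprints of 2xDbp1 against Ded1. It was 4 in mRNA of 2xDbp1 against Dbp1. With library pairs within genotypes it was 5 for translational efficiency in 2xDbp1 against Ded1, in place of 2. Neither fit changed a call of a member. With crossed numbers, chosen after seeing the data, limma called 2 genes in mRNA of 2xDbp1 against Dbp1.

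Leaving out 1 library pair at a time gave counts of 2 to 204 in mRNA and 22 to 244 in footprints of Dbp1 against Ded1, 3 to 27 in mRNA and 2 to 22 in footprints of 2xDbp1 against Ded1, and 1 to 6 in mRNA and 0 to 1 in footprints of 2xDbp1 against Dbp1. The highest for Dbp1 against Ded1 came without Dbp1 replicate 2 and the lowest without Ded1 replicate 1. A genotype left with 1 library is assumed to vary like the others. The median log2 fold change of the 32 subunits was then -0.088 to 0.185 in mRNA, -0.013 to 0.167 in footprints and -0.024 to 0.076 in translational efficiency for Dbp1 against Ded1. It was -0.144 to -0.038, -0.064 to 0.009 and 0.040 to 0.081 for 2xDbp1 against Ded1, and -0.276 to -0.033, -0.204 to -0.027 and -0.011 to 0.069 for 2xDbp1 against Dbp1. With median-of-ratios scaling the median for translational efficiency was 0.061 in Dbp1 against Ded1 and -0.001 in 2xDbp1 against Dbp1.

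For RPN4, leaving out 1 library pair gave log2 fold changes of -0.074 to 0.035 in mRNA of 2xDbp1 against Ded1, with 0.004 without 2xDbp1 replicate 1, -0.136 to 0.060 in footprints of Dbp1 against Ded1, and -0.142 to 0.054 in footprints of 2xDbp1 against Dbp1, with 0.013 without 2xDbp1 replicate 2. For its translational efficiency in 2xDbp1 against Ded1 the range was -0.143 to 0.017, with 0.016 without Ded1 replicate 1. RPN4 thus has no stable direction in these comparisons. The ratio of core to regulatory footprints without RPN10 and RPN13 was 1.55 in Dbp1 and 1.51 in Ded1. As a ratio of means over all 14 core and 18 regulatory subunits it was 1.45 in Dbp1 and 1.41 in Ded1. The SD over the subunits in Ded1 without RPN10 and RPN13 was 0.350. Depth behind the members was 580 or more inferred reads in each footprint library, PRE3 left aside.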
